A study of Mus musculus with 10 samples.

Results

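The genes of MHC class II antigen presentation were followed along the abdominal aorta of mice without apolipoprotein E. The 9 genes were given by name: the classical chains H2-Aa, H2-Ab1 and H2-Eb1, the invariant chain Cd74, the peptide loading genes H2-DMa, H2-DMb1, H2-Oa and H2-Ob, and the transactivator Ciita. All 9 had a probe with a value on every array, out of 17991 genes measured. H2-Ab1 had 2 probes listed for it alone and the other genes 1 each, and the probe of highest mean log2 stood for the gene. The mice were male, 14 weeks old and ApoE-/-. Every array carries this deletion, and no wild-type aorta is part of the comparison. The labels name neither strain nor diet. The aortas of 2 mice made 1 pool, and each of the 5 pools gave an infrarenal sample, from below the renal arteries, and a suprarenal sample, from above them. Each of the 10 samples was read on 1 single-colour array, and pools are called 1, 6, 8, 11 and 12 as in the labels.

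MHC class II molecules are pairs of an alpha and a beta chain that show peptides from endosomes to CD4+ T cells. The invariant chain blocks their groove and guides them to endosomes, where cathepsins cut it, H2-DM exchanges its last fragment for peptide, and H2-DO restrains H2-DM. CIITA is drawn to a shared promoter module of class II genes and switches them on. This is constant in dendritic cells and B cells, and follows interferon gamma in macrophages and many other cells. In atherosclerotic arteries, class II molecules are carried mainly by dendritic cells and macrophages.

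No class II gene differed between the regions beyond the spread of the pools. The regional differences of H2-Aa, H2-Ab1, H2-Eb1, Cd74 and H2-DMa were close to 0 on average, with pools going opposite ways: infrarenal aorta read higher in pools 1 and 11 and lower in pool 12. The 2 genes of the H2-DO modulator followed another course over the arrays. Of the 9 genes, 3 had a mean difference above 0 and 6 below, with a median of -0.018 on the log2 scale, infrarenal minus suprarenal. Without pool 12, 6 of the 9 were above 0, with a median of 0.089, and none passed. Over all genes the 5-pool median was -0.049 and 60.4% were below 0. With limma's paired fit 0 of the 9 passed at an adjusted p under 0.05 and 0 had an unadjusted p under 0.05, and over all 36061 probes 0% were called. Their adjusted p ran from 0.735 to 0.996. The infrarenal and suprarenal values overlapped for all 9, where 1.25% of genes had groups apart, and 0 of the 9 had the same sign in all 5 pools, where 9.23% of genes did.

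A few facts of the arrays bear on these values. Intensities are on the authors' scale, on which the median of an array is about 1, so levels of different probes are not compared. Smooth muscle markers, which define the vessel wall, were all measured (10 of 10), with a summed intensity of 1529 to 1660 in infrarenal and 1526 to 1630 in suprarenal samples. The Apoe probe was among the dimmest 30% of probes and read 0.0294 to 0.112 in infrarenal and 0.0466 to 0.168 in suprarenal samples. Whether that probe lies in the deleted stretch is not known here, so it checks no label. Pool 12 stood apart from the others: Hox genes of paralogue groups 9 to 13, which mark posterior position, had a median difference of -0.53 there and 0.018 to 0.69 in the other pools. Brown adipocyte markers had a median difference of 1.08 in pool 12 and of -2.20 to -0.088 in the others. Whether the 2 samples of pool 12 carry the right region labels could not be settled, so each direction in pool 12 and each mean or sign count over 5 pools rests on those labels. Means and medians that pool 12 moves by over 1.5 times, or turns, are given with and without it.

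Class II promoters share an X box, bound by the RFX complex, and a Y box, bound by NF-Y. Promoter stretches from RefSeq (GRCm38.p6) are shown because class II genes are known for a shared promoter module. Over the arrays H2-Oa and H2-Ob varied less closely with the classical chains and Cd74 than H2-DMa did. For H2-DMb1 this depended on the probe. The dim probe listed for it alone had an r of 0.492, and the one shared with H2-DMb2 had 0.853, against 0.867 for H2-DMa. Each stretch ends 15 bases after the Y core and reads 5′ to 3′ along the gene. Capitals mark the Y core ATTGG and, where it was found, the X core AGNAACNG.
H2-Aa (chr17:34287852-34287924, minus strand): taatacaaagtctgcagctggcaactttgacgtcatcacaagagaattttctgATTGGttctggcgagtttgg
H2-Eb1 (chr17:34305755-34305827, plus strand): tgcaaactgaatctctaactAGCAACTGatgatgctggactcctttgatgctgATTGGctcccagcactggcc
H2-DMb1 (chr17:34153077-34153149, plus strand): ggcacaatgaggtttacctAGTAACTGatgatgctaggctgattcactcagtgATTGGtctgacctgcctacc
H2-DMb2 (chr17:34145106-34145178, plus strand): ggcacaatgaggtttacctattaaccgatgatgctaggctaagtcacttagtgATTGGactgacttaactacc
H2-Oa (chr17:34092283-34092355, plus strand): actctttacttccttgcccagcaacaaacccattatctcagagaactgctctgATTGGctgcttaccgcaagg
H2-Ob (chr17:34238795-34238867, plus strand): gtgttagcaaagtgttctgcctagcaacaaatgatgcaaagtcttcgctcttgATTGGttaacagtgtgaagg

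The search covered 300 bases per start site, 250 of them upstream, on both strands, and no X match overlapped a Y match. Windows were matched for 6 of the 9 genes, 7 windows in all. H2-Ab1, Cd74 and Ciita had no entry. The Y core was in 6 of the 7 windows, against 37.4% of 32851 windows of all genes, and the X core in 3 of the 7, against 17.4%. An X core with a Y core 10 to 30 bases after it on the same strand was in 2 of the 7 windows, those of H2-Eb1 and H2-DMb1, against 0.323% of all. In H2-Eb1 the cores began 92 and 59 bases before the start with 25 bases between them, and in H2-DMb1 95 and 61 bases before it with 26 between. The Y cores of H2-Aa, H2-Oa and H2-Ob began 48, 43 and 57 bases before the start. H2-DMa had 2 windows, 1 with no match and 1 with a Y core farther upstream, and the X core of H2-Oa was on the opposite strand, 3 bases before the start. The X letters were searched with no mismatch, and their absence says nothing about factor binding.

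The classical chains form the presenting molecules themselves. H2-Aa, the alpha chain of I-A, read 87.2, 61.2, 74.3, 76.0 and 56.6 in infrarenal samples of pools 1, 6, 8, 11 and 12, and 63.0, 69.0, 84.9, 55.0 and 89.6 in the suprarenal samples. The groups overlapped, with the highest value in the suprarenal sample of pool 12 and the lowest in that of pool 11. Its mean log2 difference was -0.018 ± 0.17 (SE, n = 5 pools; limma adjusted p = 0.979), with differences of 0.47 in pool 1, 0.47 in pool 11 and -0.66 in pool 12. Without pool 12 it was 0.14 ± 0.14 (SE, n = 4 pools; limma adjusted p = 0.741).

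H2-Ab1, the beta chain of I-A, read 67.7, 54.3, 63.1, 69.0 and 51.6 in infrarenal samples and 57.1, 58.6, 65.5, 44.5 and 71.9 in suprarenal samples, in the same order of pools. The infrarenal sample was clearly higher in pool 11 and lower in pool 12. The mean log2 difference was 0.047 ± 0.15 (SE, n = 5 pools; limma adjusted p = 0.936), and 0.18 ± 0.13 without pool 12 (limma adjusted p = 0.646). The second H2-Ab1 probe had the same sign in each pool, from 0.40 in pool 11 to -0.83 in pool 12, with a mean of -0.10 ± 0.17 (SE), and 0.083 without pool 12. The 2 probes therefore differed in the sign of the 5-pool mean but not in the order of pools 1, 11 and 12 against 0.

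H2-Eb1, the beta chain of I-E, read 86.5, 66.2, 78.5, 84.6 and 49.9 in infrarenal samples and 69.8, 66.6, 81.7, 56.1 and 90.4 in suprarenal samples. Pool 12 held both its highest and its lowest array, 1.81-fold apart. The mean log2 difference was -0.0044 ± 0.18 (SE, n = 5 pools; limma adjusted p = 0.996), and 0.21 ± 0.12 without pool 12 (limma adjusted p = 0.56). I-E also needs an alpha chain from H2-Ea, which RefSeq lists as a transcribed pseudogene in the C57BL/6J reference, and the H2-Ea probe had a missing value on all 10 arrays.

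Cd74 encodes the invariant chain. It read 40.5, 40.5, 43.6, 38.8 and 30.8 in infrarenal samples of pools 1, 6, 8, 11 and 12, and 35.3, 36.6, 52.5, 35.4 and 53.5 in the suprarenal ones. The suprarenal samples of pools 8 and 12 were the highest, and the infrarenal sample of pool 12 the lowest. The mean log2 difference was -0.12 ± 0.15 (SE, n = 5 pools; limma adjusted p = 0.819), and 0.052 ± 0.10 without pool 12 (limma adjusted p = 0.881). A probe listed for both Cd74 and Hpx, the hemopexin gene, differed by -0.16 ± 0.19 (SE), or -0.29 without pool 12, and is not used for either.

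**Figure D1:**
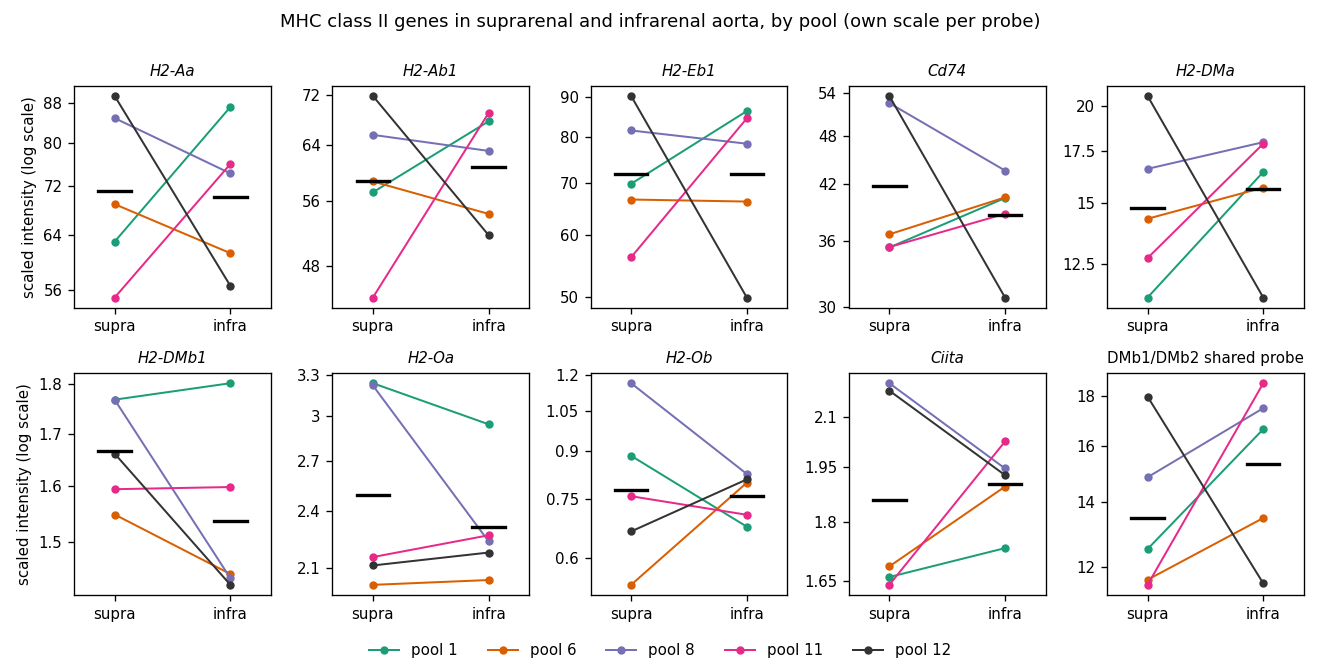
Scaled intensity (log axis, own scale in each panel) of the 9 class II genes and of the probe shared by H2-DMb1 and H2-DMb2, in suprarenal and infrarenal samples. Points are arrays, lines join the 2 samples of a pool, and bars are group means of log2. For H2-Eb1 the pool 12 line falls from 90.4 to 49.9 while the pool 11 line rises from 56.1 to 84.6.

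H2-DM loads peptide by freeing the groove of the invariant chain fragment. H2-DMa, its alpha chain, read 16.4, 15.7, 18.0, 17.9 and 11.3 in infrarenal samples and 11.3, 14.3, 16.6, 12.7 and 20.6 in suprarenal samples. It was higher in the infrarenal sample in 4 of 5 pools, by 0.54, 0.13, 0.11 and 0.49 on the log2 scale in pools 1, 6, 8 and 11, and lower by -0.86 in pool 12. The mean was 0.083 ± 0.19 (SE, n = 5 pools; limma adjusted p = 0.911). Without pool 12 the mean was 0.32 ± 0.11, with an unadjusted p of 0.0181 and a limma adjusted p of 0.40 over all probes. The remaining 4 of 4 pools were higher, which follows from leaving out the only pool below 0. In that fit 3933 of 36058 probes had an unadjusted p under 0.05.

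The beta chain was read by 2 unlike probes, and H2-DMb1 has a near-identical neighbour, H2-DMb2, so neither reading is certain. The probe listed for H2-DMb1 alone read 1.43 to 1.80 in infrarenal and 1.55 to 1.77 in suprarenal samples. Its mean log2 difference was -0.12 ± 0.10 (SE, n = 5 pools; limma adjusted p = 0.735), and its pools spread little, with differences from -0.30 to 0.027. The probe listed for H2-DMb1 and H2-DMb2 together read 16.6, 13.5, 17.5, 18.6 and 11.5 in infrarenal samples and 12.5, 11.6, 14.8, 11.5 and 18.0 in suprarenal ones. It followed H2-DMa: it was higher in the infrarenal sample in pools 1, 6, 8 and 11 and lower in pool 12. Its mean was 0.18 ± 0.17 (SE, n = 5 pools; limma adjusted p = 0.755), and 0.39 ± 0.11 without pool 12 (limma adjusted p = 0.384). Which of the 2 copies gives that signal cannot be told apart here. The probe listed for H2-DMb2 alone read 0.561 to 1.04 in infrarenal and 0.609 to 1.04 in suprarenal samples, with a mean log2 difference of -0.11 ± 0.19 (SE), or 0.042 without pool 12.

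H2-DO is a modulator of H2-DM found mainly in B cells and thymic epithelium. H2-Oa, its alpha chain, read 2.94, 2.04, 2.23, 2.27 and 2.18 in infrarenal and 3.24, 2.02, 3.22, 2.15 and 2.11 in suprarenal samples. Both samples of pool 1 and the suprarenal sample of pool 8 stood above the other 7, which lay between 2.02 and 2.27. The mean log2 difference was -0.11 ± 0.11 (SE, n = 5 pools; limma adjusted p = 0.782), of which pool 8 gave -0.53.

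H2-Ob, the beta chain, was dim, at 0.676, 0.799, 0.826, 0.707 and 0.809 in infrarenal and 0.885, 0.542, 1.16, 0.759 and 0.664 in suprarenal samples. Its values in suprarenal samples spread 2.15-fold, from pool 6 to pool 8, and enclosed all infrarenal values. The mean log2 difference was -0.028 ± 0.18 (SE, n = 5 pools; limma adjusted p = 0.97), with -0.39 in pool 1, 0.56 in pool 6, -0.50 in pool 8, -0.10 in pool 11 and 0.28 in pool 12. In pools 1, 11 and 12 these signs are the reverse of those of the classical chains. Without pool 12 the mean was -0.11 ± 0.20 (SE, n = 4 pools; limma adjusted p = 0.872).

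Ciita encodes the class II transactivator. It read 1.73, 1.90, 1.95, 2.02 and 1.93 in infrarenal samples and 1.66, 1.69, 2.21, 1.64 and 2.18 in suprarenal ones. The 10 arrays lay within 1.345-fold of each other, and the suprarenal samples of pools 8 and 12 were highest, as for Cd74. The mean log2 difference was 0.035 ± 0.11 (SE, n = 5 pools; limma adjusted p = 0.936), with -0.18 in pool 12 and 0.30 in pool 11. Without pool 12 it was 0.089 ± 0.12 (SE, n = 4 pools; limma adjusted p = 0.82). Exact two-sided sign-flip permutation tests over the 5 pools gave p between 0.25 and 1 for the 9 genes, where 0.0625 is the smallest p that 5 pools allow.

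**Figure D2:**
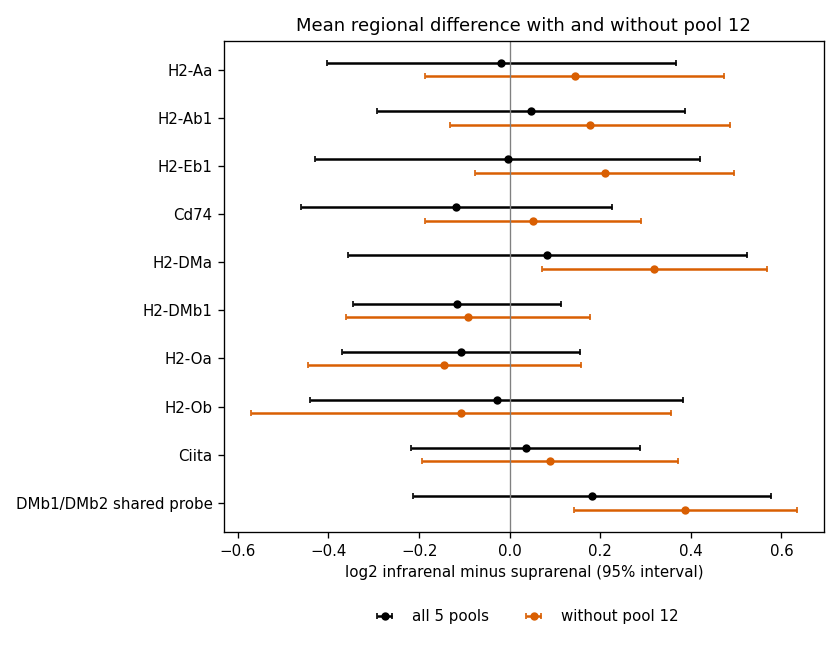
Mean log2 difference, infrarenal minus suprarenal, with its 95% interval from the limma fit, for all 5 pools (black) and without pool 12 (orange). All black intervals cross 0; without pool 12 the intervals of H2-DMa and of the shared probe lie above 0 before adjustment over all probes.

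The differences between pools were large beside those of most genes for the classical chains, Cd74 and H2-DMa. The SD of their 5 pool differences was 0.42 to 0.56 log2 units, while the median over 8909 genes of above-median brightness was 0.23. Between 8.28% and 16.4% of those genes had an SD at least as large. A difference above 0 in pools 1 and 11 and below 0 in pool 12 was found for 7 of the 9 genes, all but H2-Oa and H2-Ob, and for 17.2% of all genes. This rule was chosen after the values were seen and supports nothing by itself. In pools 1, 11 and 12 the classical chains, Cd74 and H2-DMa kept their signs after quantile normalization between arrays. In pools 6 and 8 H2-Aa, H2-Ab1 and H2-Eb1 turned from below 0 to above 0, so no direction is given there.

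**Figure D3:**
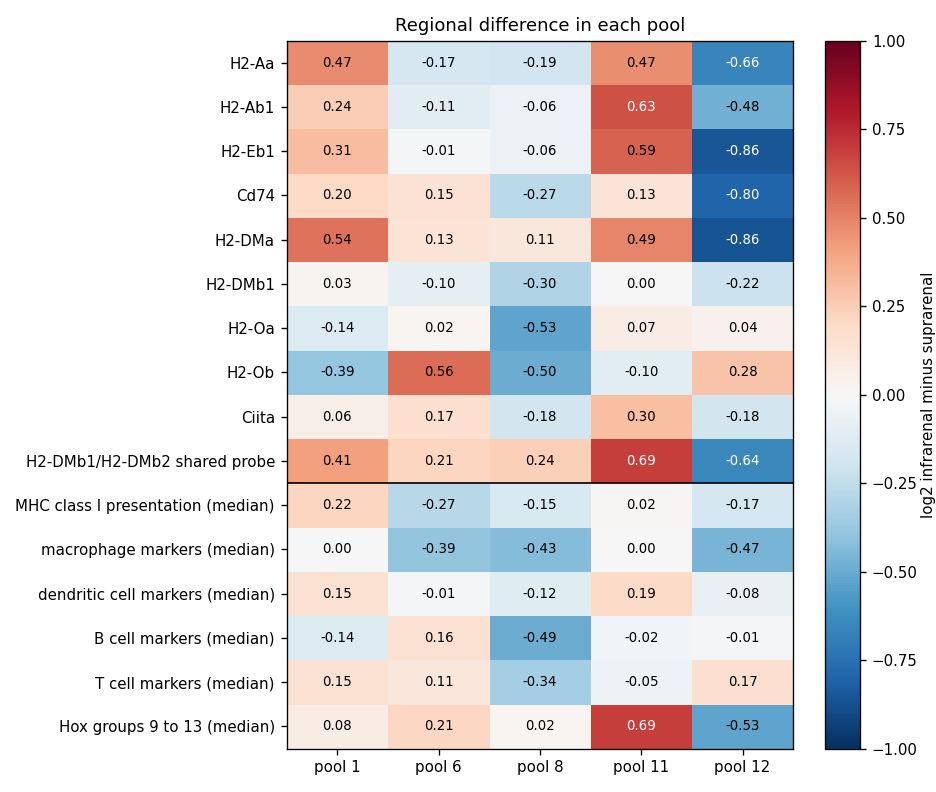
Log2 difference, infrarenal minus suprarenal, in each pool (columns) for the class II probes and, below the line, the median of gene lists. H2-Aa, H2-Ab1, H2-Eb1, Cd74, H2-DMa and the shared probe are red in pools 1 and 11 and blue in pool 12, and H2-Ob is blue in pools 1, 8 and 11.

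Over the arrays the classical chains and Cd74 varied together. With each gene centred on its own mean, these genes lay within 0.056 to 0.32 log2 units of each other on any array, while their mean moved from -0.36 in the infrarenal sample of pool 12 and -0.33 in the suprarenal sample of pool 11 to 0.34 in the suprarenal sample of pool 12. The high arrays were the suprarenal samples of pools 12 and 8 and the infrarenal sample of pool 1, so by the labels high and low arrays were found in both regions. Outside pool 12 the lowest infrarenal sample was that of pool 6, at -0.11. As a measure of likeness, Pearson's r with this mean over the 10 arrays was 0.867 for H2-DMa and 0.853 for the shared probe, 0.616 for Ciita, 0.492 for H2-DMb1, 0.3 for H2-Oa and 0.036 for H2-Ob. For H2-Aa, H2-Ab1, H2-Eb1 and Cd74, each set against the mean of the other chains, it was 0.956, 0.898, 0.937 and 0.783. Over the 8 arrays without pool 12, an alternative chosen after seeing the data, r was 0.945, 0.898, 0.929 and 0.602 for those 4, 0.744 for H2-DMa, 0.792 for the shared probe, 0.706 for Ciita, 0.327 for H2-DMb1, 0.467 for H2-Oa and 0.277 for H2-Ob. These values describe 10 arrays that share 5 pools and each array's scaling, and no test was made of them.

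Among 8903 other genes of above-median brightness, the 5 whose levels were most like that mean were Slamf8 (r = 0.924), Exoc2 (0.92), Zfp809 (0.914), Ly86 (0.914) and Tmem158 (0.911). After the pool means were taken off, their r was 0.957, 0.967, 0.991, 0.918 and 0.936. Slamf8, a receptor of the SLAM family on myeloid cells, differed by 0.75 in pool 1, 0.73 in pool 11 and -0.84 in pool 12. Ly86, which encodes the MD-1 partner of the RP105 receptor, differed by 0.33, 0.13 and -0.77 in the same pools.

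Markers of the cells that carry class II molecules were set beside these levels. Counts of genes higher or lower, in these and later lists, stand beside 60.4% of all genes lower in infrarenal aorta. In pooled tissue, fewer cells of a type and less RNA per cell cannot be told apart. Dendritic cell markers were all measured (12 of 12, 7 higher and 5 lower, median difference 0.0059, or 0.14 without pool 12), with a summed intensity of 41.3 to 52.7 in infrarenal and 44.4 to 54.1 in suprarenal samples. None was at the floor on any array, and Ccr7 was among the dimmest 30% of probes. Over the 10 arrays the mean of these markers had an r of 0.872 with the mean of the classical chains and Cd74, 0.932 with H2-DMa and 0.749 with Ciita. Without pool 12 these were 0.773, 0.889 and 0.936. Single markers differed in this: with the mean of the classical chains and Cd74, Batf3 and Cd209a had an r of 0.806 and 0.804, and Xcr1 and Itgae of -0.13 and -0.294. Xcr1 and Clec9a, markers of cross-presenting dendritic cells and the 2 of smallest p, differed by -0.23 ± 0.08 and 0.34 ± 0.12 (SE; limma adjusted p = 0.639 for each). Each kept its sign in all 5 pools, pool 12 included, as did 9.23% of genes. The Clec9a groups did not overlap, where 1.25% of genes had groups apart. Cd209a, a lectin of monocyte-derived dendritic cells that was named after its value was seen, differed by 0.0011, 0.057, 0.27, 0.90 and -1.19 in pools 1, 6, 8, 11 and 12, so it was near 0 in pool 1, where the classical chains were higher.

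Macrophage markers were lower in 12 of 13 measured, where 60.4% of all genes were lower, with a median difference of -0.26 (-0.27 without pool 12), and none passed. Cd68, Csf1r and Mertk had no value here, and none of those measured was at the floor on any array. C1qc and C1qb, complement chains made by tissue macrophages and the markers of smallest p, differed by -0.42 ± 0.09 and -0.33 ± 0.08 (SE; limma adjusted p = 0.639 for each). Both had the same sign in all 5 pools, as did 9.23% of genes. C1qc read 35.1 to 44.6 in infrarenal and 48.4 to 63.8 in suprarenal samples. Its groups did not overlap, where 1.25% of genes had groups apart, while those of C1qb did. The summed intensity of the 13 macrophage markers was 231 to 289 in infrarenal and 281 to 397 in suprarenal samples. The r of the mean of these 13 with that of the classical chains and Cd74 was 0.368, or 0.206 without pool 12. Cd5l weighed on that mean: it differed by -4.295 in pool 1, where the list had a mean of -0.30 and a median of -0.0044. Single markers, named after their values were seen, were unlike each other. Mrc1, Lyz2 and Cd14 had an r of 0.618, 0.606 and 0.574, and C1qa, C1qb and C1qc of 0.318, 0.42 and 0.374. For Cd163, Fcgr1 and Cd5l it was 0.065, 0.063 and -0.236. Aif1, a calcium-binding protein gene of macrophages named after its value was seen, had an r of 0.886 and differences of 0.43 in pool 1, 0.14 in pool 11 and -0.65 in pool 12. In pools 1 and 11 the macrophage median was near 0, at -0.0044 and -0.0043, where the median of the classical chains and Cd74 was 0.28 and 0.53, and in pool 12 the 2 medians were -0.47 and -0.73.

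B cell markers, of which 11 of 12 were measured, were higher in 3 and lower in 8, with a median difference of -0.064 (-0.15 without pool 12) and a summed intensity of 38.2 to 42.9 in infrarenal and 38.7 to 47.0 in suprarenal samples. Most of that sum came from Ebf1, named after its value was seen, and Cd79a. Ebf1 read 15.5 to 21.1 in infrarenal and 15.6 to 20.9 in suprarenal samples, and Cd79a 11.7 to 14.3 and 13.8 to 15.7. The mean of the 11 markers had an r of -0.060 with the mean of the classical chains and Cd74, of 0.763 with H2-Ob and of 0.529 with H2-Oa, and without pool 12 of 0.139, 0.761 and 0.575. The r with H2-Ob, a dim probe, rests largely on the suprarenal samples of pools 8 and 6, which are in both sets. Centred on their means, H2-Ob and the markers stood at 0.60 and 0.41 in pool 8, and at -0.50 and -0.26 in pool 6. No r was computed without these samples. For Ebf1 alone the r with the classical chains and Cd74 was 0.654. Cd79a, a signalling chain of the B cell receptor, and Cd22, an inhibitory receptor, had the smallest p and differed by -0.15 ± 0.09 and -0.18 ± 0.12 (SE; limma adjusted p = 0.656 and 0.674). Spib and Cd79b, named after their values were seen, had the signs of H2-Ob in all 5 pools, and the other 9 of the 11 did not. Spib, a transcription factor of B cells, differed by -0.29, 1.51, -1.11, -0.39 and 0.54 in pools 1, 6, 8, 11 and 12, and Cd79b by -0.22, 0.68, -1.18, -0.025 and 0.73. T cell markers (9 of 12 measured, 3 higher and 6 lower) had an r of -0.254 with the mean of the classical chains and Cd74 and of 0.554 with H2-Ob, and without pool 12 of 0.166 and 0.58. The part of any cell type in the class II levels was not tested.

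**Figure D4:**
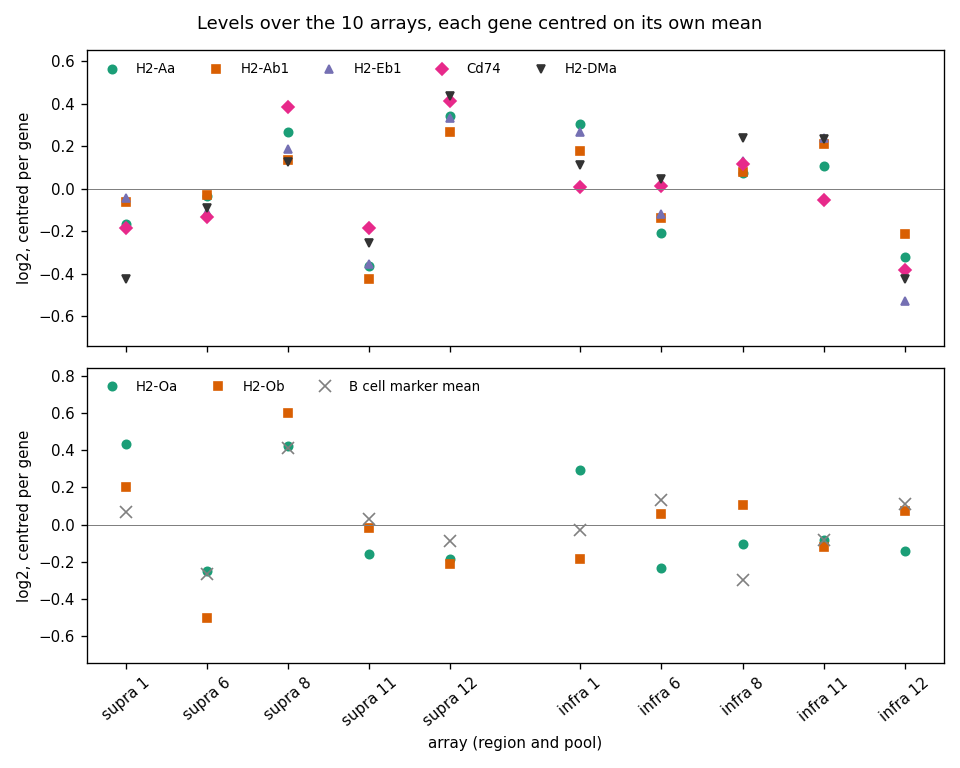
Log2 level on each of the 10 arrays, centred on each gene's mean over all arrays. The upper panel shows the classical chains, Cd74 and H2-DMa, all below 0 in infrarenal 12 and suprarenal 11 and above 0 in suprarenal 12. The lower panel shows H2-Oa, H2-Ob and the mean of 11 B cell markers, all above 0.4 in suprarenal 8.

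The r of the mean of the classical chains and Cd74 with other lists was 0.778 for endothelial markers, 0.653 for MHC class I presentation, 0.6 for skeletal muscle, 0.577 for costimulation, 0.527 for endosomal processing, 0.327 for fibroblasts, 0.239 for class II promoter factors, 0.238 for smooth muscle, -0.071 for the interferon gamma axis, -0.20 for adipocytes, -0.28 for brown adipocytes and -0.62 for sympathetic neurons. Without pool 12 the sign turned for class II promoter factors (-0.18) and adipocytes (0.026), and r was 0.637 for endothelial markers, 0.575 for class I, -0.41 for the interferon gamma axis and -0.52 for sympathetic neurons. It was then 0.498 for skeletal muscle, 0.391 for costimulation, 0.283 for endosomal processing, 0.215 for fibroblasts, 0.101 for smooth muscle and -0.14 for brown adipocytes. Single genes of the interferon gamma axis, named after their values were seen, were unlike each other over all arrays. For Ifngr1, Irf1, Ifngr2, Socs1, Jak1 and Cited2 the r was 0.83, 0.316, 0.21, 0.148, 0.144 and -0.281. Ifng and Irf2, among the dimmest 30% of probes, count in the mean of that list like any other gene. Whether class II levels follow this axis was not tested. Skeletal muscle markers had median differences of -1.99, 2.69, 0.81, 3.52 and -2.90 in pools 1, 6, 8, 11 and 12, and sympathetic neuron markers -2.72, -0.13, 1.14, -1.35 and 1.18. The part of such tissue in the class II differences was not tested.

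The factors that bind class II promoters were lower in infrarenal aorta in 6 of 7, where 60.4% of all genes were lower, with a median of -0.12, and none passed. Rfxap, a subunit of the RFX complex, was lower in 5 of 5 pools by -0.18 ± 0.09 (SE; limma adjusted p = 0.649), at 1.92 to 2.64 in infrarenal and 2.42 to 2.92 in suprarenal samples. Of all genes, 9.23% had the same sign in all 5 pools. The other RFX subunits Rfx5 and Rfxank differed by -0.38 ± 0.23 and -0.12 ± 0.11 (SE), the NF-Y subunits Nfya, Nfyb and Nfyc by -0.21, -0.069 and -0.073 (-0.17, -0.018 and -0.036 without pool 12), and Creb1 by 0.024. A second, dimmer Creb1 probe differed by -0.13 ± 0.14 (SE), or -0.042 without pool 12. Over the 10 arrays its r with the mean of the classical chains and Cd74 was 0.677, against 0.053 for the brighter probe. Rfx5 was among the dimmest 30% of probes. H2-Eb2, another beta chain gene beside H2-Eb1, read 7.46 to 11.98 in infrarenal and 6.04 to 11.3 in suprarenal samples and differed by 0.14 ± 0.17 (SE; limma adjusted p = 0.808), or 0.25 without pool 12.

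Genes that process antigen in endosomes were lower in 10 of 12, where 60.4% of all genes were lower, with a median of -0.19 (-0.16 without pool 12), and none passed. Ctss, which encodes the cathepsin that cuts the invariant chain, differed by -0.26 ± 0.08, and Ctsb by -0.26 ± 0.09 (SE; limma adjusted p = 0.639 for each). Ctss was lower in 5 of 5 pools, pools 1 and 11 included, where Cd74 was higher. The same sign in all 5 pools was found for 9.23% of genes. The interferon gamma axis had 3 of 11 measured genes higher and 8 lower (median -0.080, or -0.012 without pool 12), with the transcription factor gene Irf1 at 0.18 ± 0.10 (SE; limma adjusted p = 0.656). Ifng itself was among the dimmest 30% of probes. Costimulatory ligands had 2 of 7 higher (median -0.062), with Cd83 at -0.30 ± 0.15 (SE; limma adjusted p = 0.64).

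MHC class I presentation, the sister pathway for peptides of the cytosol, had 6 of 16 measured genes higher and 10 lower, with a median of -0.056, and none passed. H2-K1, a class I heavy chain gene, read 0.46 to 0.628 in infrarenal and 0.237 to 0.439 in suprarenal samples. It was higher in 5 of 5 pools by 0.58 ± 0.19 (SE; unadjusted p = 0.0143, limma adjusted p = 0.639), pool 12 included with 1.19. Its groups did not overlap, where 1.25% of genes had groups apart and 9.23% had the same sign in all 5 pools. The H2-K1 probe was dim, below the array median of about 1 on every array. H2-D1, another class I heavy chain gene named after its value was seen, read 109 to 138 in infrarenal and 118 to 146 in suprarenal samples. It differed by -0.072 ± 0.09 (SE), or -0.11 without pool 12. Calr, the chaperone calreticulin, was lower in 5 of 5 pools by -0.19 ± 0.07 (SE; limma adjusted p = 0.639). It read 10.8 to 11.9 in infrarenal and 12.1 to 13.5 in suprarenal samples, so its groups did not overlap either. The difference between the class I and class II lists was not tested.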

How the data were processed

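RNA from 5 infrarenal and 5 suprarenal samples was amplified from 0.34 to 0.54 µg into biotin-labelled cRNA and stained with Cy5-streptavidin, per the labels' protocols. The deposited intensity values are linear and were scaled per array by the authors, with medians of 1.001 to 1.003 as read from the values. Background correction and scaling: not given in the sources used here. Values below 0.0278 (percentile 1 of positive values) were raised to it and log2 was taken. Of the values, 1968 were missing and 1755 at or below 0. Probes with under 3 values in a region were dropped (166 of 36227). Platform annotation gave the gene symbols, which were brought up to date through Entrez identifiers in RefSeq's GRCm38.p6 table. Of the probes, 21615 had 1 symbol (21487 matched), 681 several and 13931 none, and those with several stand for no gene.

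The fit used lmFit and eBayes (trend, pool as a block) of limma 3.58.1 under R 4.3.3, two-sided, with Benjamini-Hochberg adjustment over all probes. Pairing comes from the design, since each pool's animals gave both samples. As a check, the correlation of the 2 arrays' deviations within a pool, taken over probes after subtracting region means, was 0.0452, 0.00615, -0.033, -0.053 and -0.092 in pools 1, 6, 8, 11 and 12. Alternatives were no block, quantile normalization, an offset of 0.2701, no dim probes (30% left out), no trend, array weights, RNA input, averaged probes and each pool left out, and, added after seeing the data, the shared probe for H2-DMb1 and correlations without pool 12. Members, lists and rules were chosen with earlier results of these data known. All members are named, and of each list up to 2 genes of smallest p, others being marked as chosen after their values were seen. Scripts were tested on simulated data.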

Additional observations from a re-analysis of the deposited data

Results flagged for a closer look

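H2-Oa read 1.56 on the log2 scale in the infrarenal sample of pool 1, far above the other 4 infrarenal samples, which lay between 1.03 and 1.18. The suprarenal sample of the same pool was also high. Of 26 sets of 5 arrays looked at, this was the 1 set with an array far from the others, where chance gives about 1.3.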

How the results depend on the processing

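No class II gene passed under any alternative run, with the smallest limma adjusted p of the 9 genes running from 0.939 without pool 6 down to 0.40 without pool 12. The count of probes called was 0 as reported, where 2726 had an unadjusted p under 0.05. With no replicate block it was also 0 (2758 at an unadjusted p under 0.05), and the block changed no other call. After quantile normalization 1 probe, not of a class II gene, was called. It was 0 without any single pool (lowest 0 and highest 0). Of the recomputed gene differences 97 kept their sign and 21 turned it, and the cause was not tested. The 97 overstate stability, since some alternatives leave the mean difference as it was and cannot turn a sign. These are no block, no trend and no dim probes for all 9 genes, and averaged probes for genes with 1 probe. After quantile normalization H2-Aa was 0.12, H2-Eb1 0.13 and Cd74 0.0033, and with array weights H2-Aa was 0.044 and H2-Eb1 0.067. H2-Ab1 was -0.0027 with RNA input as a covariate and -0.027 with its probes averaged, and H2-DMb1 by the shared probe was 0.18. Leaving out 1 pool at a time gave -0.14 to 0.14 for H2-Aa, -0.10 to 0.18 for H2-Ab1, -0.15 to 0.21 for H2-Eb1, -0.20 to 0.052 for Cd74 and -0.031 to 0.32 for H2-DMa. For H2-DMb1 it gave -0.15 to -0.072, for H2-Oa -0.15 to -0.0014, for H2-Ob -0.18 to 0.089 and for Ciita -0.032 to 0.089. The median over the 9 genes ran from -0.14 without pool 11 to 0.089 without pool 12, within the spread of pools. The number of arrays limits the precision, and no measure of signal over background accompanies dim probes such as H2-Ob.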
